A study of Mus musculus with 8 samples.

Results

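The mitochondrial ribosomal protein genes are described here in whole mouse embryos with and without the label of a TET triple knockout. The genes were taken by symbol, as every row of the expression table named Mrpl or Mrps followed by a number. This gave 76 of 21182 symbols, 47 of them Mrpl and 29 Mrps, and the rule itself uses no measured value, although the family was picked for description with earlier results of these data known. RNA was sequenced from 8 single whole embryos of the C57BL/6 background at E6.75, around the start of gastrulation. The genotype label of 4 embryos is Control and that of the other 4 is Tet1/2/3 TKO, for the loss of the methylcytosine dioxygenases Tet1, Tet2 and Tet3. Sample descriptions and table columns name the Control embryos 123WT. The sources used here do not spell out that name or the TKO alleles, nor do they give any Cre driver, litters, sex or batches. Since the labels describe single embryos, p-values measure the spread between these 8 embryos.

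Mitochondria keep their own ribosome, which translates the few proteins encoded by mitochondrial DNA, all of them subunits of the respiratory chain and ATP synthase. Its ribosomal RNAs come from mitochondrial DNA, while its proteins are encoded in the nucleus, made in the cytosol and imported. Part of these proteins descend from the bacterial ribosome and the rest were added in mitochondria. The small subunit reads the mRNA and the large subunit forms peptide bonds. Symbols do not always give the subunit, since Mrps18a and Mrps30 lie in the large subunit and Mrps36 is now counted as a subunit of the alpha-ketoglutarate dehydrogenase complex. By current nomenclature the 76 genes therefore split into 49 of the large subunit, 26 of the small subunit and Mrps36. By their names in that nomenclature, proteins with a bacterial homolog numbered 46 and mitochondria-specific ones 29. Mrps18a (mL66) and Mrps18b (mS40) are counted as mitochondria-specific on that basis, although they are paralogs of the bacterial S18 family.

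Promoters of such genes are known for binding sites of the factors NRF1, GABP (an ETS factor) and YY1. The sequences shown are the start regions of the 6 members whose Control and TKO-labelled values did not overlap, described further on, so that the members most separated between the groups can be read side by side. They come from RefSeq on build GRCm38.p6, whereas the expression table rests on mm9. Each runs 5′ to 3′ on the strand of its gene, from 120 bases before to 30 bases after the annotated start. Capitals mark CCGGAAG (the ETS core), AAGATGGC (the YY1 core) or GCATGCGC (an NRF1 element) on either strand. The ETS and YY1 letters can share the bases AAG.
Mrps22, chr9:98601650-98601799, minus strand: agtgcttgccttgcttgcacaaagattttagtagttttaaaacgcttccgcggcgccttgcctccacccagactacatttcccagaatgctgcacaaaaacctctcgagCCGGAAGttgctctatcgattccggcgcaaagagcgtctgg
Mrpl3, chr9:105053148-105053297, plus strand: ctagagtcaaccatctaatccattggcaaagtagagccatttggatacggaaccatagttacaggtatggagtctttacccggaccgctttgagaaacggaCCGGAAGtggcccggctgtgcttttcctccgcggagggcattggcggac
Mrpl44, chr1:79775898-79776047, plus strand: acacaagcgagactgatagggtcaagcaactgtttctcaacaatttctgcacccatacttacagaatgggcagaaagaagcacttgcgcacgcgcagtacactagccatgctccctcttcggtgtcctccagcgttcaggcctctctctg
Mrps27, chr13:99344666-99344815, plus strand: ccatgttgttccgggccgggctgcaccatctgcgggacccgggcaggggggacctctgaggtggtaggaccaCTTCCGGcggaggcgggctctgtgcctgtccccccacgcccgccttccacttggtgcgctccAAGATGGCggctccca
Mrps18b, chr17:35916411-35916560, minus strand: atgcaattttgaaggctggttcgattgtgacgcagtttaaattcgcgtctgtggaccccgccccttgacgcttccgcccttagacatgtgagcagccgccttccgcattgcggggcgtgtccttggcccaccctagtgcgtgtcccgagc
Mrps12, chr7:28741792-28741941, minus strand: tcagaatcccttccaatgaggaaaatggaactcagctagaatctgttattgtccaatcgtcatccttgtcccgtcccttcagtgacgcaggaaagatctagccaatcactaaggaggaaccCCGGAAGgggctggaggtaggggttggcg

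Mrps22, Mrpl3, Mrps27 and Mrps12 show the ETS letters in this window, and Mrps27 also the YY1 letters next to its start. Mrpl44 and Mrps18b show none of these letters in this window. A start region of 300 bases (250 before and 50 after the start) was found for 67 of the 76 members. In that longer region Mrps18b also has the ETS letters 1 time and the NRF1 letters 2 times, and Mrps12 the YY1 letters 1 time, so Mrps12 and 4 of the 5 members with higher values hold the ETS letters, and Mrpl44 still holds none. NRF1 letters on opposite strands can share bases, so the 2 counted in Mrps18b may lie in 1 stretch. In it the ETS letters stood in 24 members, or 35.8%, against 21.9% of the 7448 tested genes with a promoter in the table and 9.93% of all 27025 genes there. The YY1 letters stood in 12 members, or 17.9%, against 5.72% and 3.19%, and the NRF1 letters in 8 members, or 11.9%, against 6.73% and 3.05%. The letters TATAAA, on either strand, stood in 5 members, or 7.46%, against 8.58% of tested genes and 15.7% of all genes. CpG pairs numbered a median of 21 in members, 23 in tested genes and 8 in all genes. Such letters describe a sequence and show no binding.

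Read totals estimated from the smallest values were 12.38 to 16.42 M (mega) reads in Control and 9.90 to 18.96 M reads in TKO-labelled embryos, with the lowest in TKO replicate 1. The targeted genes check the labels. Tet1 was at 4.93 to 5.76 RPKM (reads divided by gene model length in kilobases and by the library's mapped reads) in Control and 9.21 to 15.3 RPKM in those labelled TKO, Tet2 at 0.444 to 0.850 and 0.598 to 0.993 RPKM, and Tet3 at 1.73 to 2.08 and 1.14 to 1.68 RPKM. The Tet1 level goes against its label, so the second group is called TKO-labelled throughout, although a value per gene cannot show the loss of single exons. Epiblast markers (6 genes) summed to 473 to 657 RPKM in Control and 473 to 991 RPKM in those labelled TKO, and visceral endoderm markers (7 genes) to 360 to 1240 and 764 to 944 RPKM. Parietal endoderm markers (7 genes) summed to 100 to 197 RPKM in Control and 165 to 570 RPKM in those labelled TKO. Of these 7 of 7 were higher at an unadjusted limma p under 0.05, against 13.9% of all tested genes, and 1 was without overlap between the groups. Extraembryonic ectoderm markers (5 of 6 in the table) summed to 90.2 to 143 RPKM in Control and 85.6 to 127 RPKM in the other group, markers of the maternal decidua (6 genes) to 2.88 to 422 and 13.7 to 398 RPKM, and those of maternal blood (2 of 6 in the table) to 0.137 to 28.7 and 0.18 to 20.7 RPKM. At that p 2 of 6 epiblast and 1 of 7 visceral endoderm markers were also higher, and 0 of them lower. Of 5 extraembryonic ectoderm markers 0 were higher and 1 was lower, against 3.6% of all tested genes. Of the tested decidua and maternal blood markers 0 were called either way. None of these markers was at 0 in all embryos. The part of these tissues in the values below was not tested, and fewer cells of a type cannot be told apart from less RNA per cell.

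All 76 genes were expressed in all 8 embryos, with mean levels from 16.6 to 492 RPKM, a 29.7-fold span, and a median of 74.1 RPKM. The large subunit genes had a median of 74.7 RPKM and the small subunit genes one of 68.6 RPKM. Genes of proteins with a bacterial homolog had a median of 84.0 RPKM and mitochondria-specific ones one of 55.2 RPKM. RPKM divides by length, so these levels can be set beside each other, but the gene models behind them are not known here.

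Mrpl42, a mitochondria-specific protein of the large subunit, had the highest level, at 532, 588, 437 and 406 RPKM in Control replicates 1 to 4 and 355, 614, 505 and 498 RPKM in TKO replicates 1 to 4. Mrpl12 came next, at 329 to 389 and 278 to 371 RPKM. Its protein forms the stalk that recruits translation factors. Mrpl20, whose bacterial homolog binds ribosomal RNA early in assembly, was at 281 to 349 RPKM in Control and 314 to 362 RPKM in those labelled TKO. Mrps18c followed at 276 to 383 and 205 to 391 RPKM, and Mrpl18, from the family that holds 5S RNA in bacteria, at 264 to 335 and 278 to 346 RPKM. Each of these 5 genes overlapped its neighbours in this order.

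At the other end stood Mrpl19, a large subunit protein with a bacterial homolog, at 15.8 to 16.6 RPKM in Control and 15.6 to 18.1 RPKM in those labelled TKO. Mrpl38, of the central protuberance, was at 15.2 to 17.9 and 15.6 to 25.7 RPKM. Mrps25 lay at 18.8 to 23.5 and 17.0 to 21.5 RPKM, Mrpl1, whose bacterial homolog forms the L1 stalk, at 15.7 to 23.0 and 17.9 to 26.6 RPKM, and Mrpl17, near the exit of the peptide tunnel, at 19.9 to 27.6 and 20.9 to 28.2 RPKM. Neighbours in this order overlapped too.

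**Figure D1:**
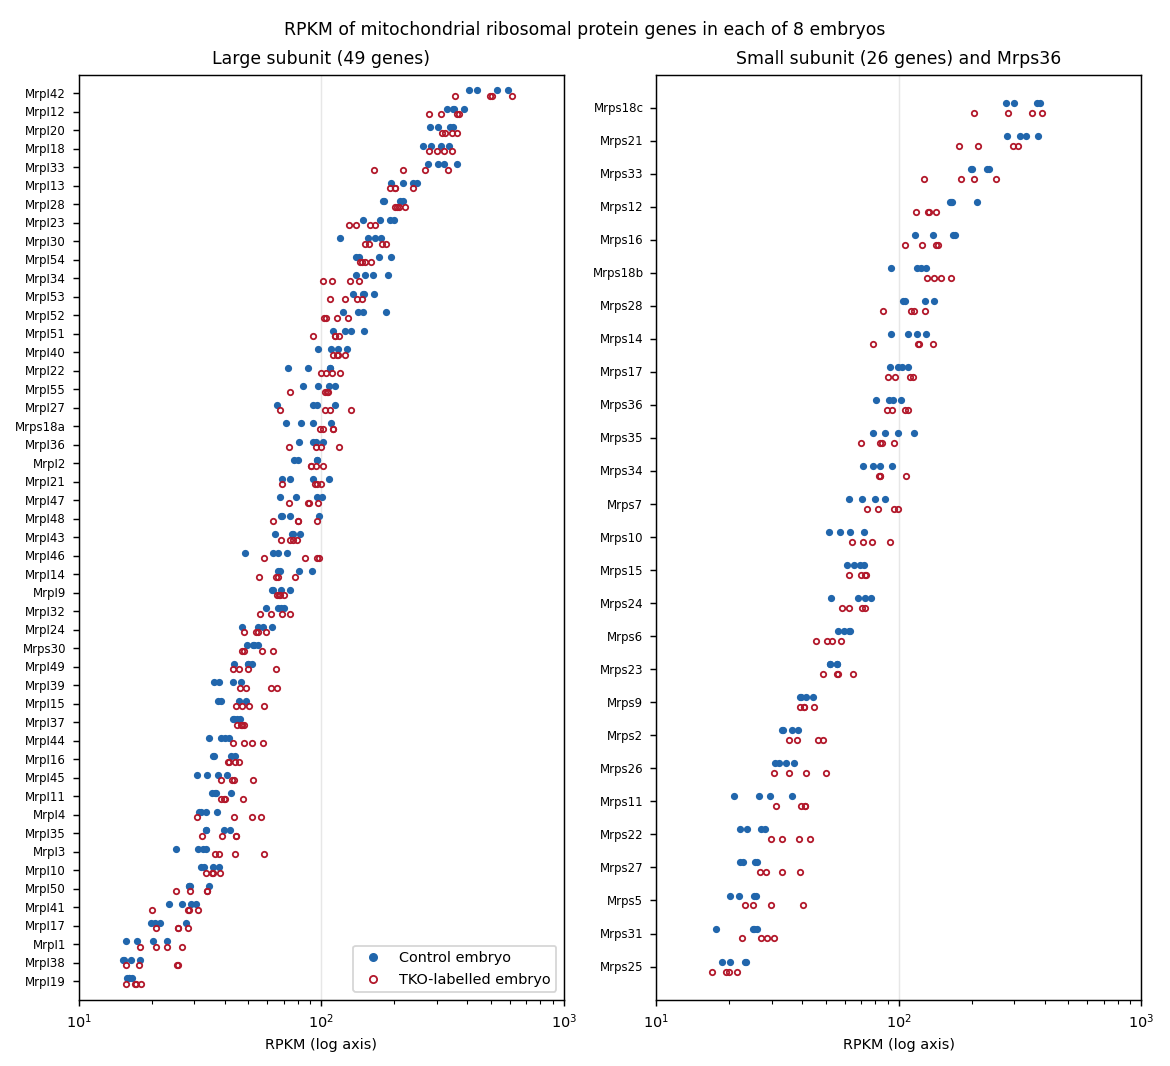
RPKM of the 76 genes in each embryo (log axis), 49 large subunit genes at left and 26 small subunit genes with Mrps36 at right, each ordered by mean level. Each row holds 4 Control points (filled) and 4 TKO-labelled points (open), and levels run from 16.6 RPKM for Mrpl19 to 492 RPKM for Mrpl42.

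Members also differed in how tightly embryos of 1 group agreed. Mrpl37, a mitochondria-specific large subunit protein, varied least, with a within-group SD of 0.04 on the log2(RPKM + 1) scale. It stood at 43.2, 46.4, 43.8 and 44.8 RPKM in Control and 44.9, 46.9, 46.5 and 48.06 RPKM in those labelled TKO. Mrpl19 (SD 0.06), Mrps9 (0.08) and Mrpl9 (0.08) came next. Mrps9 averaged 41.1 ± 2.35 RPKM in Control and 41.3 ± 2.36 RPKM in those labelled TKO, and Mrpl9 67.2 ± 5.49 and 67.6 ± 1.73 RPKM (SD, n = 4). The most variable were Mrpl27 (0.37), whose bacterial homolog reaches the peptidyl transferase centre, Mrps18c (0.34), Mrpl33 (0.32) and Mrps33 (0.30). Mrps33 was at 231, 235, 199 and 201 RPKM in Control and 127, 251, 204 and 181 RPKM in those labelled TKO, and Mrpl33 was likewise lowest in TKO replicate 1, at 166 RPKM against 218 to 334 RPKM in the other TKO-labelled embryos. The median of this SD was 0.19 over members and 0.20 over all tested genes.

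Of the 76 members, 0 passed the adjusted threshold between TKO-labelled and Control embryos, by limma on log2(RPKM + 1) with Benjamini-Hochberg adjustment over 10451 genes, where 1 gene, or 0.00957%, passed. The smallest adjusted p of a member was 0.166. At an unadjusted limma p under 0.05, 11 members, or 14.5%, had higher values in TKO-labelled embryos and 4, or 5.26%, had lower ones, against 13.9% and 3.6% of all tested genes. The groups did not overlap, with TKO-labelled values higher, in 5 members, or 6.58%, against 7.55% of tested genes, and lower in 1, or 1.32%, against 1.86%. These shares lie near those of all genes, so they show no result about the family. Positive differences were found in 51 members, or 67.1%, against 66.5% of all genes, and the median log2 difference was 0.05 over members and 0.09 over all tested genes. The members' median was 0.083 without Control replicate 2, 0.021 without Control replicate 4, 0.095 without TKO replicate 1 and 0.032 without TKO replicate 4, where that of all genes was 0.085, 0.103, 0.091 and 0.076.

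These directions depend on scaling. Scaling by median ratios to the gene means shifted the median of all genes by 0.07 to 0.02. With it, the members' median was -0.03, and 31 members, or 40.8%, had positive differences against 53.6% of all genes. Higher values at that p then stood in 5 members, or 6.58%, and lower values in 9, or 11.8%, against 8.03% and 6.44% of all genes. The groups then did not overlap in 2 members with higher and 2 with lower TKO-labelled values, against 4.05% and 3.65% of all genes. Counts also moved with single embryos. The number with higher values at that p was 6 without Control replicate 3, 6 without Control replicate 4 and 5 without TKO replicate 4, where the share of all genes was 10.3%, 11.0% and 8.11%, and the number with lower values was 7, or 9.21%, without TKO replicate 2, against 3.38% of all genes. Non-overlapping members with higher values numbered 9 without Control replicate 1, 8 without Control replicate 2, 8 without TKO replicate 1 and 8 without TKO replicate 3, or 11.8%, 10.5%, 10.5% and 10.5%, against 13.4%, 9.6%, 13% and 11.2% of all genes in these fits. Those with lower values numbered 6 without Control replicate 4, or 7.89% against 2.57% of all genes, and 3 without TKO replicate 2, or 3.95% against 3.08%. They numbered 2, or 2.63%, when Control replicate 1 or 3 or TKO replicate 1 or 3 was left out, against 3.08% to 3.75% of all genes.

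The intervals limit how large a difference could be. The 95% confidence interval of the log2 difference lay within ±1 for all 76 members and within ±0.5 for 43. The lowest bound was -0.82, for Mrps21, and the highest 0.84, for Mrpl3. A p that misses the threshold does not show that the levels were equal.

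**Figure D2:**
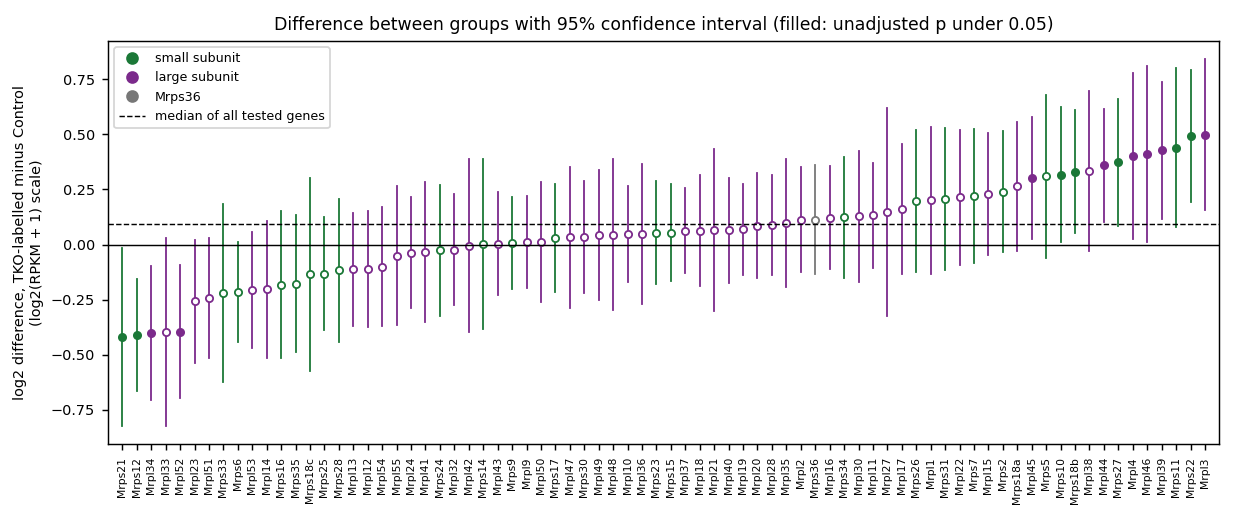
Log2 difference of each of the 76 genes, TKO-labelled minus Control on the log2(RPKM + 1) scale, with its 95% confidence interval, ordered by size and coloured by subunit. Filled points have an unadjusted limma p under 0.05 (11 higher, 4 lower), and the dashed line is the median of all tested genes, 0.09.

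Mrps22, a mitochondria-specific small subunit protein whose loss causes inherited mitochondrial disease, had the smallest p. It was at 23.8, 28.2, 22.1 and 27.2 RPKM in Control and 29.7, 38.9, 33.2 and 42.9 RPKM in those labelled TKO. All 4 TKO-labelled embryos lay above all Control embryos, with replicates 2 and 4 farthest. After median-ratio scaling 0 small subunit genes had all TKO-labelled values above all Control values, so Mrps22 overlapped too. The exact p given here is that of the unscaled values. Its log2 difference was 0.49 (SE 0.14, limma adjusted p = 0.166, exact two-sided permutation p = 0.0286, the smallest that 70 assignments allow).

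Mrpl3, homolog of a bacterial protein that reaches toward the peptidyl transferase centre, was at 33.4, 31.2, 32.4 and 25.2 RPKM in Control and 36.3, 44.1, 38.04 and 57.8 RPKM in those labelled TKO. The groups did not overlap, and TKO replicate 4 stood highest. The log2 difference was 0.50 (SE 0.16, limma adjusted p = 0.182), and it ranged from 0.36 to 0.58 when each embryo was left out in turn.

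Mrpl44, a large subunit protein with a fold related to RNase III, was at 40.2, 38.8, 34.4 and 41.7 RPKM in Control and 51.9, 43.3, 47.9 and 57.7 RPKM in those labelled TKO. Again every TKO-labelled value lay above the Control values, with TKO replicate 2 the closest to them. The log2 difference was 0.36 (SE 0.12, limma adjusted p = 0.189). Its gene overlaps Wdfy1 in RefSeq, and the use of strand in counting is not known here.

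Mrps27, a small subunit protein of the pentatricopeptide repeat type that binds RNA, was at 22.1, 25.6, 26.2 and 22.9 RPKM in Control and 33.0, 28.5, 26.9 and 39.1 RPKM in those labelled TKO. The gap between the groups was narrow, with TKO replicate 3 just above Control replicate 3, and the groups overlapped after median-ratio scaling. The log2 difference was 0.37 (SE 0.13, limma adjusted p = 0.210).

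The 3 paralogs of the bacterial S18 family did not share a direction. Mrps18b was at 124, 119, 129 and 93.4 RPKM in Control and 149, 131, 140 and 165 RPKM in those labelled TKO, with no overlap (log2 difference 0.33, limma adjusted p = 0.230). After median-ratio scaling its groups overlapped and its unadjusted limma p was 0.082. Mrps18a, the paralog placed in the large subunit, was at 109, 82.4, 92.3 and 71.8 RPKM and at 101, 98.7, 112 and 112 RPKM, where Control replicate 1 reached into the TKO-labelled range (0.26, limma adjusted p = 0.326). Mrps18c, the closest to the bacterial protein in its place on the ribosome, was at 371, 383, 298 and 276 RPKM in Control and 205, 391, 355 and 283 RPKM in those labelled TKO. It had the widest range of the 3, and its log2 difference of -0.14 (limma adjusted p = 0.749) was 0.05 without TKO replicate 1.

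Mrpl39, Mrps11 and Mrpl45 also had higher values at an unadjusted p under 0.05, with some overlap. Mrpl39, a large subunit protein specific to mitochondria, was at 46.5, 43.4, 38.01 and 35.98 RPKM in Control and 61.95, 46.2, 49.1 and 65.9 RPKM in those labelled TKO (0.43, limma adjusted p = 0.194). Mrps11, of the small subunit platform, was at 29.4, 36.3, 20.9 and 26.7 RPKM and at 31.2, 39.7, 41.1 and 40.9 RPKM (0.44, limma adjusted p = 0.225). Control replicate 2 lay above TKO replicate 1 in that gene. Mrpl45, which holds the ribosome to the inner membrane beside the tunnel exit, was at 40.9, 37.4, 30.9 and 33.9 RPKM in Control and 42.7, 43.8, 38.7 and 52.1 RPKM in those labelled TKO (0.30, limma adjusted p = 0.255). The other 3 at that p were Mrpl4, Mrps10 and Mrpl46, with log2 differences of 0.40, 0.32 and 0.41. After median-ratio scaling the unadjusted limma p was 0.026 for Mrpl39, 0.055 for Mrps11 and 0.096 for Mrpl45. It was then 0.067 for Mrpl4, 0.115 for Mrps10 and 0.108 for Mrpl46.

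Mrps12, the homolog of the bacterial protein that sets decoding accuracy and carries streptomycin resistance, had the lowest p among members with lower values. It was at 210, 165, 163 and 166 RPKM in Control and 143, 132, 118 and 134 RPKM in those labelled TKO. The groups did not overlap, and Control replicate 1 stood apart from the other Control embryos. The log2 difference was -0.41 (SE 0.12, limma adjusted p = 0.171, exact two-sided permutation p = 0.0286), and it ranged from -0.45 to -0.32 when each embryo was left out in turn. Sars2, the mitochondrial seryl-tRNA synthetase gene known to lie head to head with Mrps12, averaged 8.88 ± 0.95 RPKM in Control and 12.02 ± 4.20 RPKM in those labelled TKO (log2 difference 0.35, limma adjusted p = 0.383).

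Mrpl34, Mrpl52 and Mrps21 had lower values with overlap. Mrpl34, from a family of very short large subunit proteins, was at 139, 189, 163 and 151 RPKM in Control and 143, 101, 111 and 132 RPKM in those labelled TKO (-0.40, limma adjusted p = 0.204). Mrpl52 was at 149, 186, 141 and 123 RPKM and at 104, 116, 129 and 102 RPKM (-0.40, limma adjusted p = 0.206). In each of these, 1 embryo reached into the range of the other group. Mrps21, which has a bacterial homolog in the small subunit, was at 335, 377, 279 and 317 RPKM in Control and 177, 311, 297 and 213 RPKM in those labelled TKO (-0.42, limma adjusted p = 0.268), so TKO replicates 1 and 4 were low and the others lay inside the Control range.

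**Figure D3:**
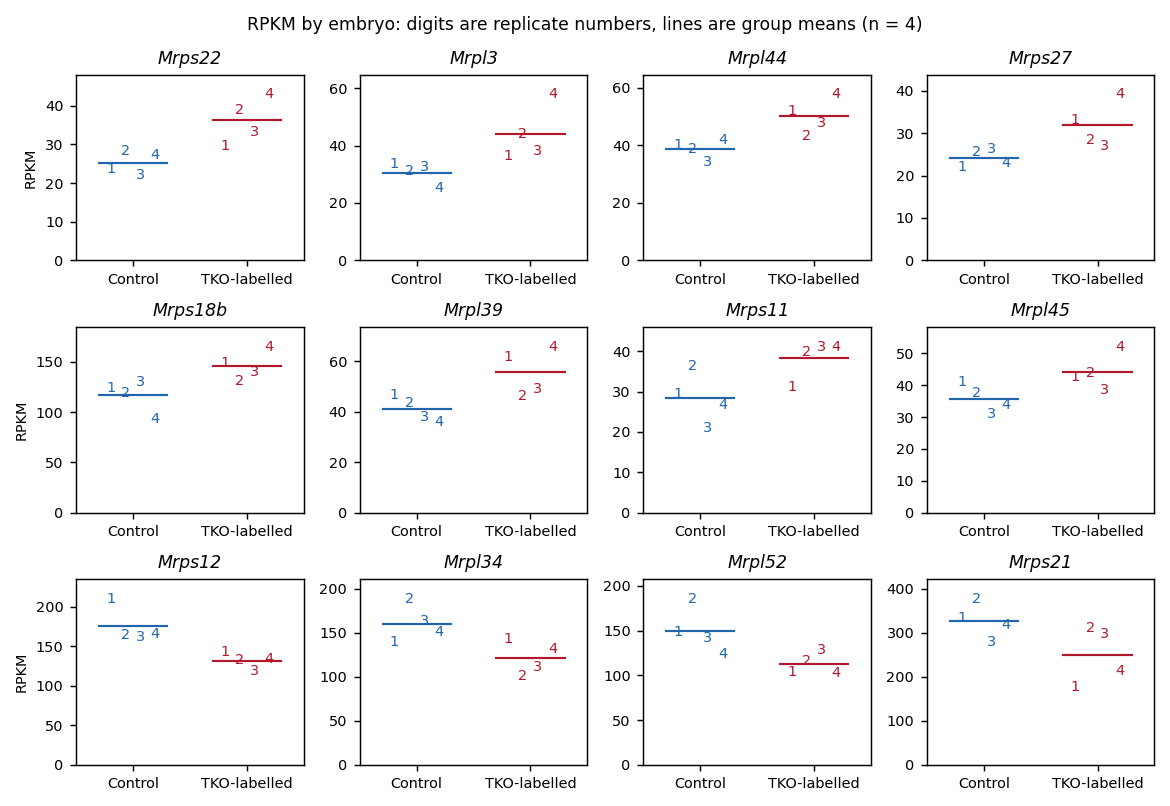
RPKM by embryo for the 8 members with higher and the 4 with lower values in TKO-labelled embryos that had the smallest unadjusted p in each direction, with digits for replicate numbers and lines for group means (n = 4). The groups do not overlap in Mrps22, Mrpl3, Mrpl44, Mrps27, Mrps18b and Mrps12, and TKO replicate 4 is the highest embryo in Mrps22, Mrpl3, Mrpl44, Mrps27, Mrps18b, Mrpl39 and Mrpl45.

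Grouped by place in the ribosome, members had mixed signs. Of all tested genes 66.5% had positive differences, 13.9% were higher and 3.6% lower at an unadjusted limma p under 0.05. After median-ratio scaling these shares were 53.6%, 8.03% and 6.44%. Of 5 proteins of the stalk and its base, which bind translation GTPases, 2 had positive differences and 0 an unadjusted p under 0.05, with a median of -0.10. After median-ratio scaling 1 was positive and 1 lower at that p, with a median of -0.19. Mrpl10 averaged 34.7 ± 2.77 RPKM in Control and 35.8 ± 1.84 RPKM in those labelled TKO (SD, n = 4), Mrpl11 37.8 ± 3.05 and 41.6 ± 4.14 RPKM, and Mrpl12 355 ± 25.1 and 331 ± 44.4 RPKM. Among 7 proteins of the central protuberance 6 had positive differences, with a median of 0.07, and 1, Mrpl46, was higher at that p. After median-ratio scaling 3 were positive, with a median of -0.02, and 0 were called at that p. Among 6 proteins around the tunnel exit 4 had positive differences, with a median of 0.10, and 1 was higher at that p. After that scaling 3 were positive, with a median of 0.01, and 1 was lower at that p. Of 5 proteins of the decoding centre and the head of the small subunit, Mrps12 lay lower and Mrps10 higher at that p, though Mrps10 no longer did after that scaling. Mrps7, Mrps9 and Mrps14 had log2 differences of 0.22, 0.01 and 0.001, of which Mrps9 and Mrps14 turned negative after scaling (-0.08 each). Mrps28, related to bacterial S1, averaged 120 ± 17.5 and 111 ± 17.6 RPKM, and Mrps36, the dehydrogenase subunit, 92.1 ± 9.07 and 99.8 ± 9.54 RPKM.

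By subunit, 16 of 26 small subunit genes had positive differences (median 0.04, or -0.04 after median-ratio scaling and -0.001 without TKO replicate 4), as did 34 of 49 large subunit genes (median 0.06, or -0.02 after that scaling). Without Control replicate 2, Control replicate 3 or TKO replicate 1 the small subunit median was 0.069, 0.027 or 0.075. Without Control replicate 4, TKO replicate 1 or TKO replicate 4 the large subunit median was 0.011, 0.095 or 0.04. At an unadjusted p under 0.05, 5 small subunit genes (19.2%) were higher and 2 (7.69%) lower, and 6 large subunit genes (12.2%) were higher and 2 (4.08%) lower, against 13.9% and 3.6% of all genes. After scaling the balance turned, with 2 higher and 3 lower in the small and 3 higher and 6 lower in the large subunit, against 8.03% and 6.44% of all genes. Mitochondria-specific proteins had 7 higher (24.1%) and 1 lower (3.45%) of 29, and proteins with a bacterial homolog 4 higher (8.7%) and 3 lower (6.52%) of 46, with medians of 0.05 each. The 7 include Mrps18b, of the S18 family, which is placed in this class by its name alone. After scaling these were 4 higher and 3 lower, and 1 higher and 6 lower, with medians of -0.03 each. No test of the difference between these classes was made.

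The members' differences ordered with the length of the coding sequence, a property looked at after the values were seen. Of the 25 members with the shortest coding sequences (195 to 480 bases), 9 had positive log2 differences, with a median of -0.10. Of the 25 with the longest (762 to 1326 bases), 24 had positive differences, with a median of 0.23, and the exception was Mrps35, of the small subunit, at -0.18. The 26 between them had a median of 0.07. All 4 members with lower values at an unadjusted p under 0.05 were among the shortest (Mrps21 at 261 bases, Mrpl34 at 276, Mrpl52 at 363 and Mrps12 at 417), and 9 of the 11 with higher values were among the longest, such as Mrps27 at 1245 and Mrps22 at 1077 bases. All tested genes tilted the same way, though their ranges had no outer bound. The 951 in the short range ran from 111 to 495 bases and the 7820 in the long range from 759 to 23151. The long ones had a median of 1590 bases, against 960 for the 25 longest members. Of the short ones 7.36% were higher and 13.5% lower at that p, and of the long ones 14.6% were higher and 2.16% lower. The members' shares were 0% and 16% in the short range and 36% and 0% in the long one. Over the 76 members Spearman's rank correlation coefficient between coding length and log2 difference was 0.66, and Pearson's r on log2 length 0.68. The genes share the same 8 libraries and are not independent, so no p is given.

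The same order appeared in each subunit. Among small subunit genes 2 of the 8 shortest and 8 of the 9 longest had positive differences (medians -0.20 and 0.24), and among large subunit genes 6 of 16 and 16 of 16 (medians -0.04 and 0.22). After median-ratio scaling the medians over the 25 shortest and 25 longest members were -0.19 and 0.15, with 3 and 17 positive. Over all tested genes in the short and long ranges they were then -0.119 and 0.035, with 307 of 951 and 4422 of 7820 positive. Without that scaling, 44.1% of the 951 tested genes with a coding sequence in the short range had positive differences, with a median of -0.04. Of the 7820 with 759 bases or more, 69.9% had positive differences, with a median of 0.11. Spearman's coefficient was 0.06 across all 10071 genes with a length and 0.18 across the 5056 within the members' length range. With the annotated transcript length in place of the coding length, the members' Spearman coefficient was 0.31 and the medians over shortest and longest were -0.05 and 0.08. Short members were also the more abundant, with a median of 131 RPKM against 41.2 RPKM for the longest, so length and level move together here. The lengths are those of GENCODE release M21 on GRCm38, not of the gene models behind the RPKM values.

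**Figure D4:**
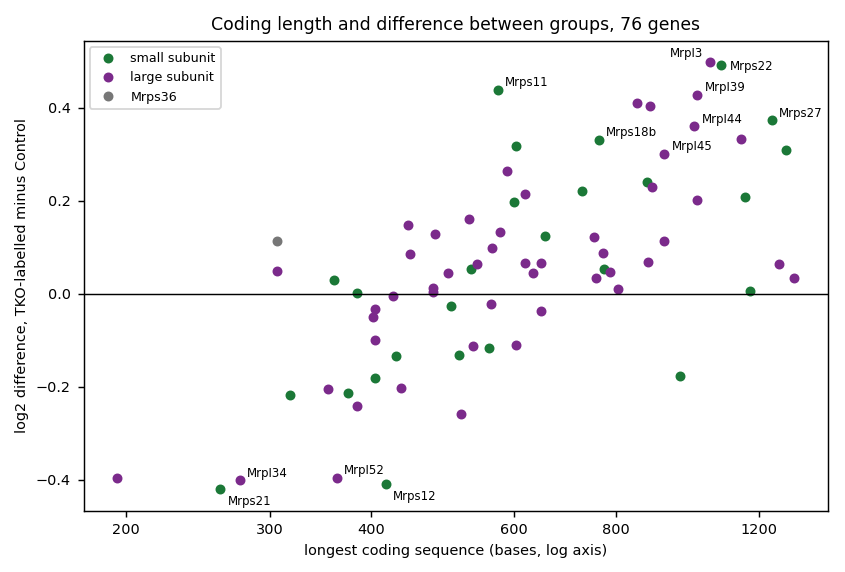
Log2 difference between groups, TKO-labelled minus Control, against the longest coding sequence in bases (log axis) for the 76 genes, coloured by subunit, with the named genes marked. The 25 shortest genes spread on both sides of 0 with a median of -0.10, with Mrps21, Mrpl34 and Mrpl52 near -0.40, and 24 of the 25 longest lie above 0, such as Mrps27 at 0.37.

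That order differed between embryos. The median log2 deviation from the gene mean over the 25 shortest members was 0.14, 0.19, 0.01 and -0.14 in Control replicates 1 to 4 and -0.34, 0.06, 0.08 and -0.01 in TKO-labelled replicates 1 to 4. TKO replicate 1 was thus far below the rest, and Control replicates 1 and 2 were above. Over the 25 longest members it was -0.03, -0.06, -0.17 and -0.14 in Control and 0.05, 0.04, 0.02 and 0.19 in TKO-labelled embryos, without overlap between the groups. Over the 7820 tested genes of 759 bases or more it did not overlap either. It was -0.01, -0.07, -0.11 and -0.01 in Control and 0.06, 0.02, 0.02 and 0.10 in the other group. Without TKO replicate 1 the medians of the log2 difference were -0.01 for the shortest and 0.18 for the longest, their difference was 0.19 in place of 0.33, and the Spearman coefficient was 0.55. Without any 1 of the other 7 embryos it was 0.59 to 0.74. TKO replicate 1 also had the lowest estimated read total, 9.90 M reads, the most genes listed at 0, 4942, and the highest epiblast marker sum, 991 RPKM. Their part in the length order was not tested.

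Over the whole family TKO replicate 4 was the highest embryo for 30 members, or 39.5%, against 23.7% of all tested genes, and TKO replicate 1 the lowest for 23 members, or 30.3%, against 12.6%. Control replicate 4 was the highest for 0 members and the lowest for 19, or 25%, against 10.9% of all genes. Median member levels were 81.1, 69.7, 73.6 and 66.2 RPKM in Control and 69.4, 74.0, 80.0 and 82.8 RPKM in those labelled TKO, so the groups overlapped.

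**Figure D5:**
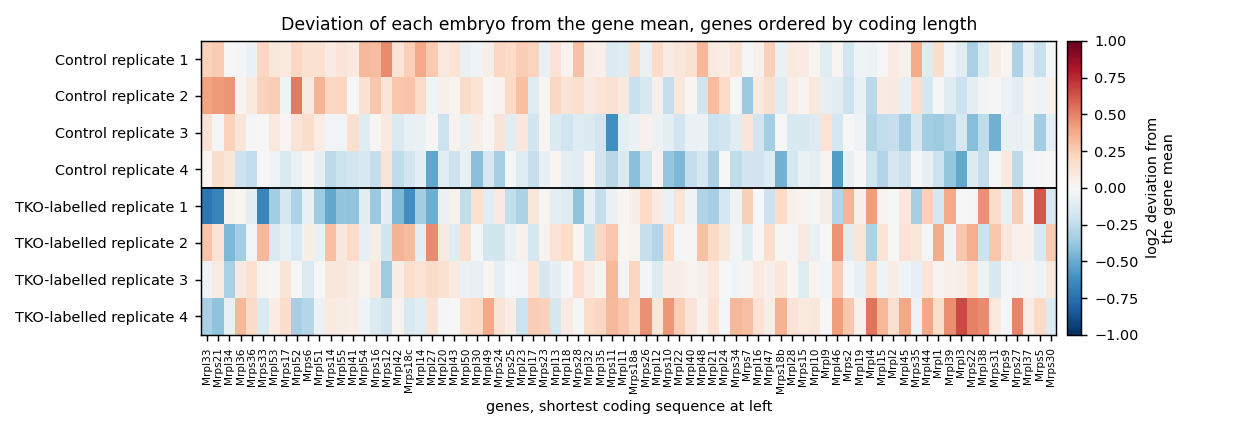
Deviation of each embryo (rows) from the mean of each gene (columns, shortest coding sequence at left) on the log2(RPKM + 1) scale, red above and blue below the gene mean. TKO replicate 1 is mostly blue at the short end, with a median of -0.34 over the 25 shortest members, and TKO replicate 4 is mostly red at the long end, with a median of 0.19 over the 25 longest.

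Other genes of mitochondrial translation were read from lists written with earlier results of these data known. By limma 0 genes of these lists passed the adjusted threshold, and their counts at an unadjusted p under 0.05 stand against 13.9% higher and 3.6% lower of all genes (8.03% and 6.44% after median-ratio scaling). Of 7 mitoribosomal proteins without an Mrpl or Mrps symbol, 2 (28.6%) were higher and 0 lower at that p, and 0 either way after scaling, with a median of 0.06 that scaling turned to -0.03. The 2 were Ict1, a peptidyl-tRNA hydrolase built into the large subunit, at 66.1 ± 6.96 RPKM in Control and 80.5 ± 6.52 RPKM in those labelled TKO (log2 difference 0.28), and Ptcd3, a pentatricopeptide repeat protein of the small subunit, at 61.7 ± 7.45 and 73.9 ± 5.90 RPKM (0.26). Of 21 tested assembly factors 4 (19%) were higher and 0 lower, with a median of 0.10, and after scaling 1 was higher, with a median of 0.03. Rpusd4, a pseudouridine synthase acting on mitochondrial rRNA, averaged 12.1 ± 1.07 and 14.8 ± 0.80 RPKM without overlap (0.27), and Fastkd2, an RNA-binding protein of large subunit assembly, 15.8 ± 1.09 and 20.03 ± 3.07 RPKM (0.32). After scaling 0 of the 21 assembly factors were without overlap.

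Of 14 tested translation factors 12 had positive differences and 2 (14.3%) were higher at that p, with a median of 0.21. After scaling 1 was higher, with a median of 0.12. Oxa1l, which inserts newly made proteins into the inner membrane, was at 18.1, 18.9, 16.2 and 15.3 RPKM in Control and 25.9, 23.1, 19.9 and 23.9 RPKM in those labelled TKO. Every TKO-labelled embryo lay above every Control embryo (log2 difference 0.41, limma adjusted p = 0.170). Mrrf, the ribosome recycling factor, averaged 10.98 ± 0.75 and 14.1 ± 2.34 RPKM (0.32), also without overlap. After scaling 0 of the 14 translation factors were without overlap. Among 17 mitochondrial aminoacyl-tRNA synthetases 14 had positive differences and 3 (17.6%) were higher at that p, with a median of 0.21. After scaling 2 were higher and 1 lower, with a median of 0.13. Rars2 averaged 20.3 ± 1.69 and 26.1 ± 3.67 RPKM and Wars2 1.54 ± 0.28 and 2.30 ± 0.31 RPKM, with log2 differences of 0.34 and 0.38.

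Genes of mitochondrial DNA transcription and replication held 0 of 8 at that p, led by the transcription factor Tfb2m (9.10 ± 1.02 and 11.0 ± 1.60 RPKM) and the DNA polymerase Polg (12.5 ± 1.88 and 14.7 ± 1.66 RPKM). Among 10 tested nuclear regulators of mitochondrial genes 2 were higher and 1 lower, and after scaling 1 and 1. Gabpb1, a subunit of the ETS factor GABP, was at 8.16, 11.3, 9.78 and 10.7 RPKM in Control and 14.1, 14.9, 10.9 and 16.1 RPKM in those labelled TKO, with TKO replicate 3 inside the Control range (log2 difference 0.44, limma adjusted p = 0.190). Esrra, the nuclear receptor ERR alpha, was at 13.6, 14.04, 12.6 and 14.8 RPKM and at 10.97, 10.05, 10.7 and 10.8 RPKM. Its groups did not overlap (log2 difference -0.34, limma adjusted p = 0.173).

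Set beside the mitochondrial ribosomal proteins, the 76 tested genes of the cytosolic ribosome had a median log2 difference of -0.20, with 14 (18.4%) positive. At that p 2 (2.63%) were higher and 26 (34.2%) lower, with 0 past the adjusted threshold. After scaling 0 of these genes were higher and 35 (46.1%) lower. Of all tested genes 66.5% were positive, 13.9% higher and 3.6% lower, or 53.6%, 8.03% and 6.44% after scaling. Control replicate 2 was the highest embryo for 61 of these 76 genes, or 80.3%, against 7.5% of all genes, and its part in that difference was not tested. The 36 tested subunit genes of respiratory complex I, which the mitochondrial ribosome serves, had a median of -0.11, with 12 (33.3%) positive. Of them 4 (11.1%) were higher and 9 (25%) lower, or 3 (8.33%) and 11 (30.6%) after scaling. TKO replicate 1 was the lowest embryo for 19 of these 36 genes, or 52.8%, against 12.6% of all genes, and its part was likewise not tested. With a coding sequence under 498 bases, 2 of 45 cytosolic ribosomal and 1 of 20 complex I genes had positive differences (medians -0.35 and -0.23), against 9 of 25 mitochondrial ribosomal genes (-0.10). In the length range of the 25 longest members and above, the numbers were 7 of 11 and 6 of 7 (medians 0.13 and 0.30), against 24 of 25 (0.23). No test between the families was made.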

How the data were processed

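RNA-seq of 8 single embryos, 4 per group by title and genotype labels, was read from 1 table of RPKM values per gene that the authors deposited. Per the submitters' processing notes HTSeq and mm9 were used. The aligner, gene models, library strandedness and HTSeq's role are not stated there. Depth was estimated from the steps between small values. At the totals found, 47.2% to 55.7% of low values were whole reads, against 7.6% to 12.5% at random totals, so whole reads could not be had and count models were left out.

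Values were tested as log2(RPKM + 1) with limma 3.58.1 (R 4.3.3, variance trend) over 10451 genes at 1 RPKM or more in at least 4 embryos, with Benjamini-Hochberg adjustment over all of them. The model was tested on simulated data with independent noise for each gene. The planted differences were larger than that of any member, so that test does not cover differences as small as the members'. Single values were compared by an exact two-sided permutation test over 70 assignments. The table is already scaled to depth, so no further scaling entered the main values. Alternatives were median-ratio scaling, other pseudocounts and filters, no variance trend, a replicate block, and leaving out each embryo.

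Members and lists were chosen with earlier results of these data known. Named genes were up to 8 members per direction with the smallest p under 0.05, the 5 highest and 5 lowest in level, the 4 most and 4 least variable, members of set roles (the S18 paralogs, Mrps36, Mrps12, Mrpl10, Mrpl11, Mrpl12, Mrpl45, Mrps28, Mrpl44), and 2 genes of smallest p from each other list. Mrpl4, Mrps10, Mrpl46, Mrps14, Mrps35 and Sars2 were named after their values were seen, as was the use of coding length. RefSeq spans of 23 members overlap another gene, so strand-blind counting could mix their reads.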

Additional observations from a re-analysis of the deposited data

Results flagged for a closer look

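Among 66 groups of 4 embryos (33 named members in each of the 2 genotype groups), 3 held an embryo far from the others, by a gap criterion that chance meets in about 1 of 20 groups. Mrpl11 was at 47.7 RPKM in TKO replicate 4 and at 38.7 to 39.99 RPKM in the other embryos labelled TKO. Mrps11 was at 31.2 RPKM in TKO replicate 1, against 39.7 to 41.1 RPKM in the other 3. Mrps12 was at 210 RPKM in Control replicate 1, against 163 to 166 RPKM in the other Control embryos.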

How the results depend on the processing

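Of the summary results under alternatives, 104 kept their direction and stayed within 1.5 times (counts) or 1 SD between embryos (medians) of the main value, 19 moved further and 4 reversed. For single genes 637 were unchanged in call and direction, 18 reversed and 1 became called. The call is an adjusted limma p under 0.05, which no named gene reached in the main fit, so an unchanged call says little. Other filters, no variance trend and the replicate block leave the members' log2 differences and overlap as they were. Those fits therefore add unchanged results by design. Median-ratio scaling gave 5 members higher and 9 lower at an unadjusted limma p under 0.05, against 8.03% and 6.44% of all genes. It left 2 and 2 without overlap, against 4.05% and 3.65% of all genes. It gave medians of -0.031 (all members), -0.044 (small subunit) and -0.022 (large subunit). Among the 33 members named by rule, it reversed Mrpl18 (-0.0222), Mrpl20 (-3.21e-05), Mrpl19 (-0.0128), Mrpl37 (-0.021), Mrps9 (-0.0789), Mrpl9 (-0.0739) and Mrpl10 (-0.0371). Other members reversed too, since positive differences over all 76 members fell from 51 to 31 with that scaling. Leaving out each embryo gave 5 to 12 members higher (6.58% to 15.8%) and 3 to 7 lower (3.95% to 9.21%). The shares of all genes were 8.11% to 15.2% and 2.32% to 3.84%. Without overlap, 5 to 9 members were higher (6.58% to 11.8%) and 1 to 6 lower (1.32% to 7.89%). The shares of all genes were 8.28% to 13.4% and 2.34% to 3.75%. Leaving out each embryo gave medians of 0.021 to 0.095 (all members), 0.011 to 0.095 (large subunit) and -0.001 to 0.075 (small subunit). Among the same 33 members, leaving out an embryo turned the sign of Mrps18c (-0.263 to 0.0472), Mrpl42 (-0.12 to 0.144), Mrpl27 (-0.00116 to 0.336), Mrps9 (-0.0319 to 0.0399) and Mrpl9 (-0.0224 to 0.0608). Members outside this list changed sign as well, such as Mrpl21 (-0.031 to 0.186) and Mrps14 (-0.099 to 0.172). The longest minus shortest coding-length difference in medians, 0.33, was 0.189 to 0.414 when an embryo was left out and 0.134 with transcript length. Tet1 passed the adjusted threshold of limma without TKO replicate 1 (difference 0.828, adjusted p = 0.0315). It was 1 of 36 genes that passed in that fit, against 1 gene in the main fit. The cause of these changes was not tested. With the replicate block, 9 members (11.8%) were higher and 5 (6.58%) lower, against 13.6% and 4.61% of all genes. The adjusted threshold of limma was passed by 0 members in that fit. Same-numbered embryos correlated at 0, 0.40, 0.26 and -0.02, and differently numbered ones at -0.46 to 0.20. Whether the numbers pair the embryos cannot be told from these values. Depth estimates are approximate, and 4 embryos per group leave a median SE of 0.132.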
